A study of Mus musculus with 29 samples.

Results

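Hif1a and 9 genes of glucose uptake and glycolysis (Slc2a1, Hk1, Hk2, Aldoa, Pgk1, Eno1, Pkm, Ldha and Pdk1) were followed in hematopoietic stem cells (HSCs) of wild-type (WT) and Gadd45b knockout (KO) mice. The 10 genes were chosen by symbol, and all 10 were found among the 55376 gene symbols counted. The data were 19 RNA-seq libraries made with a SMART-Seq v4 kit for small amounts of RNA, 4 from young WT HSCs (YWT), 4 from old WT HSCs (OWT), 4 from young KO HSCs (YKO) and 7 from old KO HSCs (OKO). The comparisons asked how these genes differed with age in WT HSCs (OWT vs YWT) and in KO HSCs (OKO vs YKO), and with genotype in young (YKO vs YWT) and old HSCs (OKO vs OWT). The labels give the ages only as young and old, the genotypes as WT and Gadd45KO and the sex of each library as female, whereas the study's methods speak of mice of both sexes. The KO mice were of a Gadd45b knockout line from The Jackson Laboratory, the WT groups carried no named allele, and none of the 4 groups had a named treatment. The study's gate for HSCs was Lin-, cKit+, Sca1+, CD34-, Flk2- and CD150+. Nothing in the labels says that the libraries of a group came from separate animals, so p-values here measure only the spread between these libraries.

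Glycolysis splits glucose into pyruvate in the cytosol and yields a little ATP without oxygen. GLUT1, encoded by Slc2a1, carries glucose into the cell, hexokinases trap it as glucose 6-phosphate, and aldolase, phosphoglycerate kinase, enolase and pyruvate kinase act further down. Lactate dehydrogenase A turns pyruvate into lactate, and pyruvate dehydrogenase kinase 1 holds pyruvate back from the mitochondrion. Hif1a encodes the oxygen-regulated subunit of hypoxia-inducible factor 1, whose protein is broken down when oxygen is present, so that much of its control lies beyond the RNA. Quiescent HSCs live in a bone marrow niche poor in oxygen and are known for relying on glycolysis, and Hif1a is known for maintaining that state. The genes shown here are among the best described targets of this factor.

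Library totals ranged from 22197555 to 77970627 counts, and the number of genes above 1 CPM (counts scaled to the size of each library) from 15296 to 27972. In 5 libraries, OKO1, OKO2, OKO3, YWT4 and YKO2, this number was at least 18530, whereas in the other 14 it was at most 16917. All 10 HSC marker genes had a median CPM of at least 1 in each group. Gadd45b itself was counted in every library, with 9.12, 17.5, 8.17 and 7.34 CPM in YWT1 to YWT4, 10.1, 10.4, 15.5 and 10.2 in OWT1 to OWT4, 12.7, 14.3, 5.98 and 5.14 in YKO1 to YKO4, and from 2.84 to 6.94, with a median of 4.40, in OKO. The libraries labelled OKO all lay below those of OWT, but YKO1 and YKO2 lay inside the YWT range, so YKO and YWT could not be told from each other by this gene. Whether the counted reads lay outside the deleted part of the gene is not known from counts per gene. YKO and OKO therefore stand throughout for the libraries so labelled. The titles of the 4 OWT libraries and of OKO4 to OKO7 begin with IB15 and those of the other 11 do not. Within the WT libraries age and this naming cannot be told apart, whereas YKO vs YWT lies within 1 naming series.

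All 10 genes matched RefSeq promoter windows on GRCm38.p6, 18 windows in all, of which the 250 bases before the start site were searched on both strands. The letters ACGTG, the core to which the hypoxia-inducible factors bind, were present upstream of at least 1 start site in 7 of the 10 genes (70.0%) and in 4998 of the 27025 genes of the table (18.5%). By window these were 8 of 18 (44.4%) and 5444 of 32851 (16.6%), and the related GCGTG was found for 5 of the 10 genes and for 30.9% of all genes. The members differ in number of windows, and a match is a description of letters, not of a binding site. The sequences printed here are 100 bases each upstream of Hk2 and Slc2a1, whose levels had the same 5 highest libraries with TMM scaling (3 of 5 shared by library total), of Ldha and Pgk1, whose windows hold several matches, and of the first Hk1 window, which holds 0. Capitals mark ACGTG or its reverse complement CACGT, and the capital run CACGTG of Ldha holds both, overlapping.
Hk2, chr6:82774455-82774554, minus strand: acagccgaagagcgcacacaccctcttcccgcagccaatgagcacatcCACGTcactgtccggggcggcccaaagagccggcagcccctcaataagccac
Slc2a1, chr4:119108645-119108744, plus strand: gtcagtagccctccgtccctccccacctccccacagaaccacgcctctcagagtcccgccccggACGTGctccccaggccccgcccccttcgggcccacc
Ldha, chr7:46845704-46845803, plus strand: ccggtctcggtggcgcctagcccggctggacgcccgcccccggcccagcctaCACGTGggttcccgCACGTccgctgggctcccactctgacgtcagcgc
Pgk1, chrX:106186940-106187039, plus strand: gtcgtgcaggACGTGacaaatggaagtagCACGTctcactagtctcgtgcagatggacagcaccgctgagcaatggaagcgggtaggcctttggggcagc
Hk1, chr10:62379909-62380008, minus strand: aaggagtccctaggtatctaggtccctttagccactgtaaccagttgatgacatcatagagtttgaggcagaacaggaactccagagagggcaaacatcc
The Pgk1 stretch begins 160 bases before the start site, and the other 4 end at the base before it. Hk2 and Hk1 carry out the same reaction, and the Hk2 stretch holds 1 ACGTG match where that of Hk1 holds 0. The related GCGTG was found 3 times in the second Hk1 window, which holds 0 ACGTG, and 0 times in the Hk2 window.

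Expressed per kilobase of exon, so that genes of different length could be set side by side, Ldha had the highest level of the 10 genes and Hk2 the lowest in each of the 4 groups. The mean level of Ldha, with its SD over 4 YWT and 7 OKO libraries, was 412 ± 55.1 CPM per kb in the former and 473 ± 195 in the latter. That of Hk2 was 4.88 ± 0.265 CPM per kb in YWT against 8.11 ± 2.69 in OKO. Aldoa came second in each group, followed by Pkm and Eno1, whose order was exchanged in YKO. In YWT the libraries of Ldha, Aldoa, Pkm and Eno1 did not overlap from one gene to the next on this scale. Hk1, at 51.5 ± 9.81 CPM per kb, and Pgk1, at 51.7 ± 9.16, could not be ranked within their spread in YWT, and neither could Slc2a1 at 17.1 ± 2.81, Pdk1 at 13.9 ± 4.54 and Hif1a at 10.8 ± 2.78. In OKO each gene overlapped the next in the order. Hk1 thus stood about an order of magnitude above Hk2 per length in young HSCs of either genotype.

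**Figure D1:**
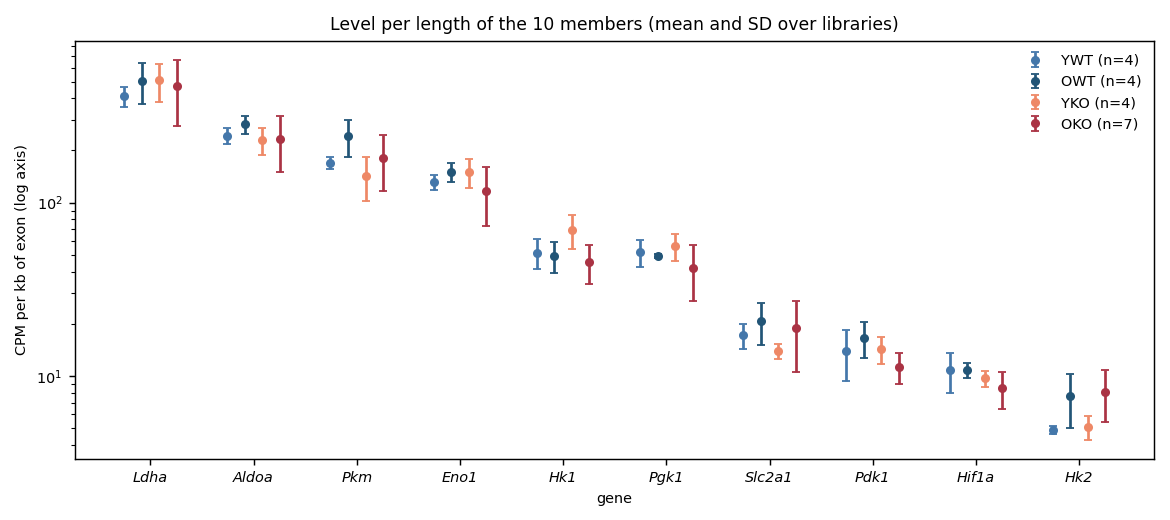
CPM per kilobase of exon on a log axis for the 10 genes, as mean and SD over the libraries of each group. Ldha lies highest and Hk2 lowest in all 4 groups, and the SD is widest in OKO for 7 of the 10 genes, in YWT for Hif1a and Pdk1 and in YKO for Hk1.

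By the call used here, a Benjamini-Hochberg adjusted p under 0.05 in the edgeR quasi-likelihood test with a fold change over 1.5, 0 of the 10 genes differed in any of the 4 comparisons. The interaction of genotype and age, called on adjusted p alone, gave 0 as well. The largest differences in old over young HSCs were those of Hk2, which was higher by 0.64 on the log2 scale in OWT and by 0.67 in OKO, and Hk1 was -0.60 in OKO vs YKO. In bulk samples such as these, fewer cells of a type and less RNA per cell cannot be told apart.

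In OWT vs YWT, 0 of 10 members were called by edgeR, as were 0.00297% of the 33690 genes tested, and 0 by DESeq2, which called 0.401% of all. Hk2 alone of the 10 had an unadjusted p under 0.05, a share of 1 in 10 against 4.38% of all genes. The fitted log2 fold changes were above 0 for 8 of the 10 (for 7 with RLE, upper-quartile or library total scaling, and for 1, Hk2, with naming series as a covariate), with a median of 0.24 beside -0.05 over all genes tested. Hk2 and Pkm had all OWT libraries above all YWT libraries, and 4.13% of all genes had groups that did not overlap in either direction. By library total alone 0 of the 10 had groups apart, since YWT4 then lay above OWT3 and OWT4 for Hk2 and above OWT3 for Pkm. Over the 7 neutrophil markers the summed level, scaled by library total, was 292 to 511 CPM in OWT and 65.2 to 291 in YWT, with 0 of the 7 at 0 in all libraries of a group, and its part in the Hk2 and Pkm values was not tested. With naming series as a covariate, a term estimated from the OKO libraries since no other group holds both series, the log2 fold changes in OWT vs YWT were -0.44 for Hif1a, -0.41 for Hk1, -0.71 for Aldoa, -0.74 for Pgk1, -0.78 for Eno1 and -0.74 for Ldha, and 0.44 for Hk2, with 0 members called.

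In YKO vs YWT, edgeR called 0 of 10 members and 0.0267% of all genes, and DESeq2 called 0 of 10 and 0.404% of all. None of the 10 had an unadjusted p under 0.05, beside 4.59% of all genes, and none had groups that did not overlap, beside 5.12%. The members' median log2 fold change was 0.05 and that of all genes -0.02. The widest interval in this comparison was that of Ldha, from -0.42 to 1.02, which spans fold changes from 0.749 to 2.03.

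In OKO vs YKO, the comparison with the most calls, edgeR called 0 of 10 members and 1.29% of all genes, while DESeq2 called 1, Hk2 (log2 fold change 0.73, adjusted p = 0.0231), and 6.3% of all. Hk1 and Hk2 had an unadjusted p under 0.05 in edgeR, 2 of 10, beside 15.8% of all genes, so the members' share was near that of all genes tested. When symbols averaging under 5 CPM were left out of the fit, 4184 of 12363 had such a p. None had groups that did not overlap, beside 2.6% of all genes. The members' median log2 fold change was -0.15, with 4 above and 6 below 0, while the median of all genes tested was 0.23. Both medians moved with the scaling, and by library total alone, without the TMM factor, they were 0.08 for the members, with 6 above 0, and 0.63 for all genes. Over the 8 markers of cycling cells the summed level, scaled by library total, was 989 to 1490.5 CPM in YKO and 249 to 1301 in OKO, and over the 10 HSC markers 1829 to 2558 in YKO and 1705 to 3903 in OKO, with 0 of either list at 0 in all libraries of a group. The part of these in the values of OKO vs YKO was not tested.

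In OKO vs OWT, edgeR called 0 of 10 members and 0.0327% of all genes, and DESeq2 called 0 and 0.217%. Pdk1 was the 1 member with an unadjusted p under 0.05, beside 8.14% of all genes, and 0 members had groups that did not overlap, beside 0.819%. The fitted fold changes were below 0 for 9 of the 10, with a median of -0.26 beside 0.12 over all genes, and by library total alone for 6 of the 10, with medians of -0.06 and 0.46. For the interaction, the counts were 0 of 10 by edgeR, which called 0.0% of all genes, 0 by DESeq2, which called 0.0208%, and 0 of 10 with an unadjusted p under 0.05, beside 4.62%. The comparisons share groups with one another (YWT, YKO, OWT and OKO each enter 2), so they are not independent of each other.

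**Figure D2:**
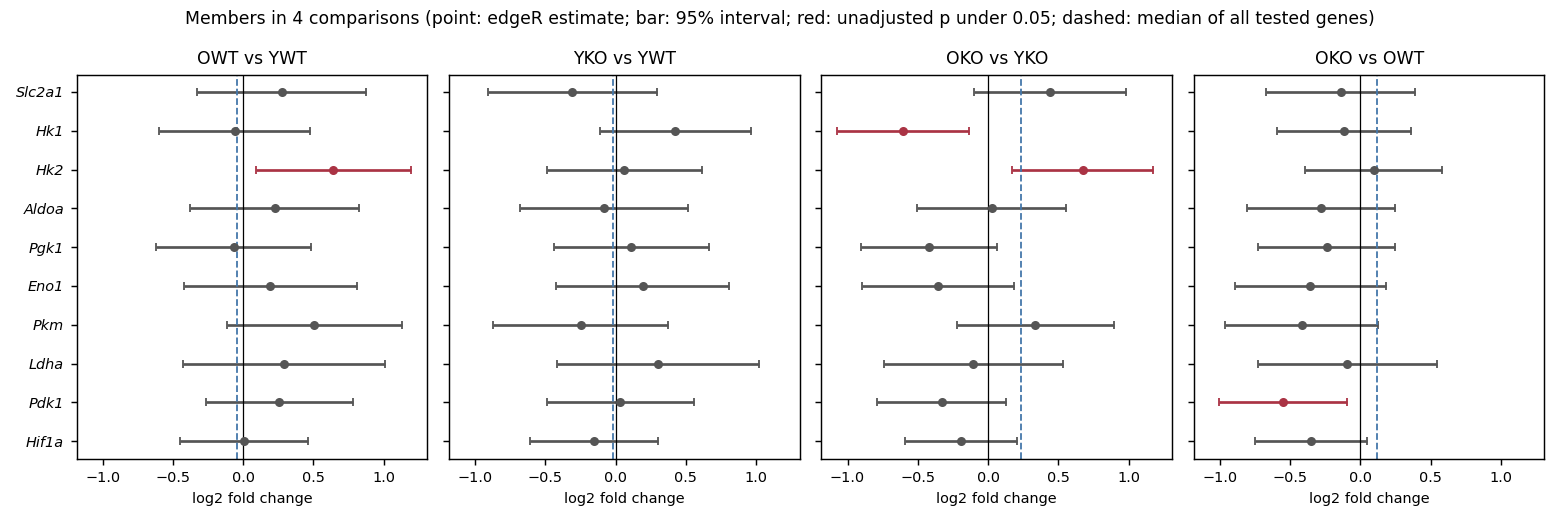
Log2 fold changes of the 10 genes in the 4 comparisons, with 95% intervals from edgeR. Red marks the 4 values with an unadjusted p under 0.05 (Hk2 in OWT vs YWT, Hk1 and Hk2 in OKO vs YKO, Pdk1 in OKO vs OWT), and the dashed line is the median of all genes tested.

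Slc2a1 (ENSMUSG00000028645.11, chromosome 4, 119108711 to 119137983, plus strand, positions here and below from GENCODE M21 on mm10) encodes the glucose transporter GLUT1. Its CPM, normalized by TMM as are all CPM given here unless stated otherwise, was 46.2, 62.4, 69.6 and 62.1 in YWT1 to YWT4 and 82.8, 95.9, 54.0 and 57.8 in OWT1 to OWT4. It was 41.4, 51.7, 49.98 and 50.9 in YKO1 to YKO4 and ranged from 41.7 to 124, with a median of 66.1, in OKO. The YKO libraries were the most even, and OWT1 and OWT2 stood above all young libraries (by library total YWT4 lay just above OWT1). OKO5, at 124, stood above all others, whereas by library total it was at 105.9 and OKO3 at 104.6. The old and young groups overlapped in both genotypes. The log2 fold change in OKO vs YKO was 0.44 ± 0.26 (SE, 95% interval -0.10 to 0.98, edgeR adjusted p = 0.417), and in OWT vs YWT it was 0.27 ± 0.29 (adjusted p = 1.000). With OKO1 to OKO3 as the only OKO libraries, which share the naming series of YKO, the value in OKO vs YKO was 0.21. The antisense gene Gm12868 shares 105 exon bases with Slc2a1, and whether strand was used in counting is not given in the sources used here.

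Hk2 (ENSMUSG00000000628.10, chromosome 6, 82725025 to 82774454, minus strand) encodes the inducible hexokinase. It stood at 29.5, 27.0, 29.1 and 30.9 CPM in YWT1 to YWT4 and at 63.1, 54.2, 33.0 and 31.5 in OWT1 to OWT4. In YKO1 to YKO4 it stood at 28.2, 32.2, 25.1 and 36.0, and in OKO it ranged from 33.9 to 73.0, with a median of 39.6. OWT1 and OWT2 stood far above YWT, whereas OWT3 and OWT4 lay just above the highest YWT library, so the 2 WT groups did not overlap with TMM scaling, whereas by library total YWT4, at 37.5 CPM, lay above OWT3, at 30.9, and OWT4, at 30.6. In the KO groups OKO1 and OKO2 lay below YKO4, at 36.0, and the other 5 OKO libraries lay above it. By library total YKO4 was at 33.7 CPM, and OKO7, at 29.6, was the OKO library below it.

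The log2 fold change of Hk2 was 0.64 ± 0.27 (SE) in OWT vs YWT, with a 95% interval of 0.09 to 1.20, an unadjusted p of 0.0252 and an adjusted p of 1.000 in edgeR. In OKO vs YKO it was 0.67 ± 0.24 (SE), with an interval of 0.17 to 1.18, an unadjusted p of 0.0108 and an adjusted p of 0.168. The difference between these age effects, the interaction, was 0.03 ± 0.36 (interval -0.71 to 0.77, adjusted p = 0.982). Within the naming series shared by YKO and OKO1 to OKO3, the value was 0.62 (adjusted p = 0.0960), and with OKO4 to OKO7 alone and without YWT4 and YKO2 it was 0.79 (adjusted p = 0.194). In OKO vs YKO, Hk2 passed the call with upper-quartile normalization (log2 fold change 0.81, adjusted p = 0.0355), where 3.2% of all genes were called. Hk2 also passed with genes restricted to a mean CPM of at least 5 (log2 fold change 0.89, adjusted p = 0.0128), where 12.1% were called. Neither genotype comparison separated Hk2, with 0.06 ± 0.27 in YKO vs YWT and 0.09 ± 0.24 in OKO vs OWT.

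Hk1 (ENSMUSG00000037012.18, chromosome 10, 62268855 to 62379908, minus strand) encodes the widely expressed hexokinase. Its CPM was 547, 441, 425 and 343 in YWT1 to YWT4, 511, 472, 379.8 and 321 in OWT1 to OWT4 and 776, 473, 561 and 547 in YKO1 to YKO4. In OKO it ranged from 238 to 493, with a median of 403. YKO1 had the highest value of all 19 libraries and OKO1 the lowest, and OKO2 and OKO7 were the OKO libraries that reached the lower end of YKO. By library total YWT2 was the lowest, at 305 CPM, and OKO2, at 599, and OKO4, at 464, lay in the YKO range. The log2 fold change in OKO vs YKO was -0.60 ± 0.23 (SE, interval -1.07 to -0.13, unadjusted p = 0.0141, adjusted p = 0.188), and in YKO vs YWT it was 0.42 ± 0.26 (adjusted p = 1.000). Within the naming series of YKO, with OKO1 to OKO3 alone, it was -0.75 (adjusted p = 0.0479), which passed the call. With OKO4 to OKO7 alone and without YWT4 and YKO2 it was -0.55 (adjusted p = 0.172). Summed over the 9 erythroid marker genes, the level was 1587 to 4493 CPM in YKO, 834 to 2050.3 in YWT, 167 to 896 in OWT and 59.3 to 2044 in OKO, scaled by library total, and 0 of the 9 were at 0 in all libraries of a group. Over the 7 B cell markers it was 177 to 1389 CPM in YKO and 229 to 444 in YWT, 57.7 to 192 in OWT and 37.2 to 155 in OKO. The part of these cells in the Hk1 values was not tested. An antisense gene, Hk1os, shares 157 exon bases with Hk1.

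**Figure D3:**
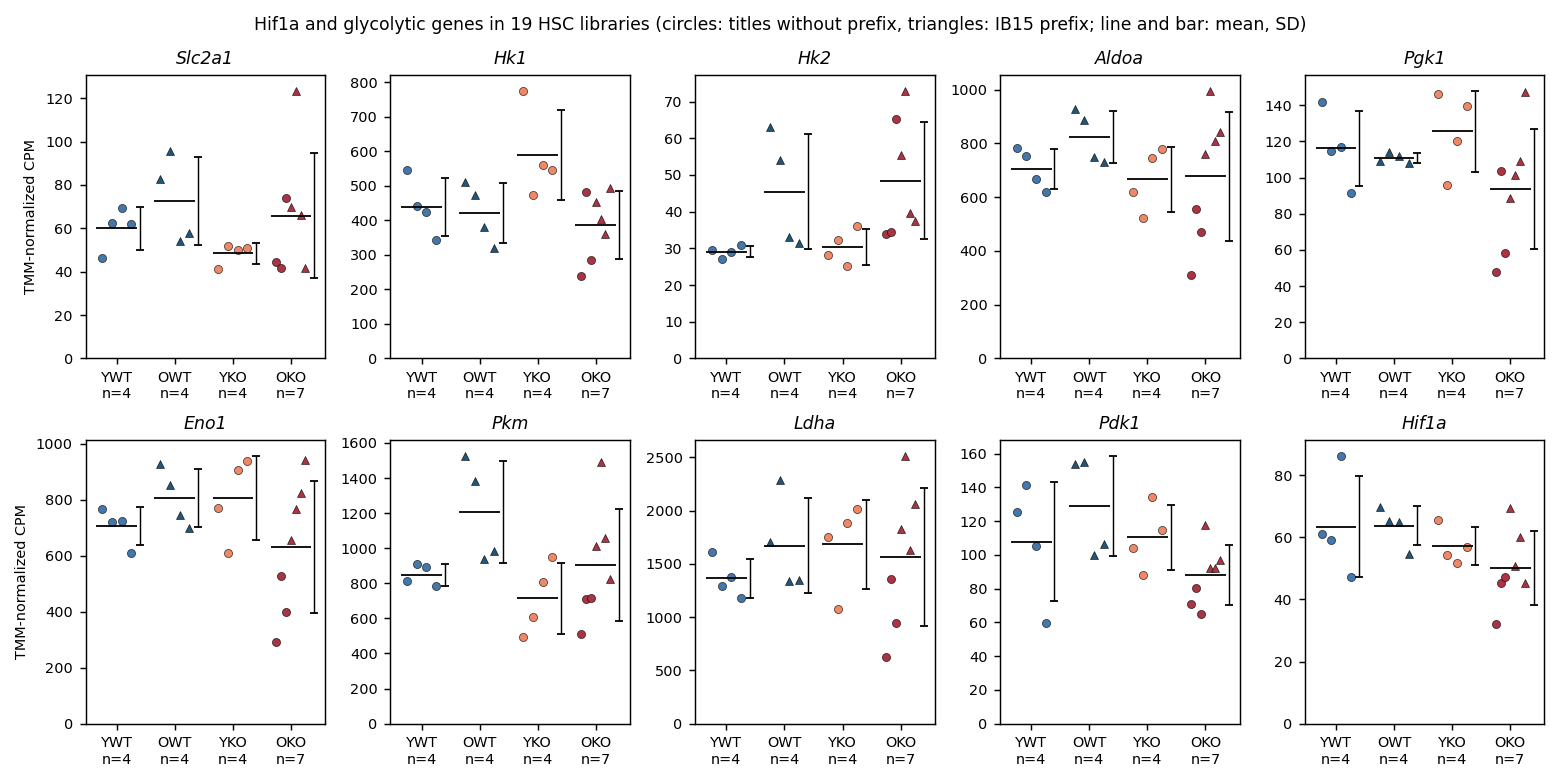
TMM-normalized CPM of the 10 genes in each of the 19 libraries, by group, with the group mean (line) and SD (bar). Hk2 lies at 27.0 to 30.9 in YWT and 33.9 to 73.0 in OKO. OKO1, the first circle of OKO in each panel, is the lowest OKO library for 8 of the 10 genes. By library total it is the lowest OKO library for Aldoa, Eno1 and Ldha, and the highest for Pdk1.

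Aldoa (ENSMUSG00000030695.16, chromosome 7, 126795234 to 126800751, minus strand), Pgk1 (ENSMUSG00000062070.12, chromosome X, 106187100 to 106203699, plus strand) and Eno1 (ENSMUSG00000063524.13, chromosome 4, 150236721 to 150248879, plus strand) encode aldolase A, which splits fructose 1,6-bisphosphate, phosphoglycerate kinase 1, which makes the first ATP of the pathway, and enolase 1, the step before pyruvate kinase. Aldoa ranged from 619 to 782 CPM in YWT, from 732 to 926 in OWT, from 521 to 781 in YKO and from 309.8 to 997, with a median of 760.1, in OKO. Pgk1 ranged from 91.2 to 142 CPM in YWT, from 108 to 114 in OWT, from 95.8 to 146 in YKO and from 47.7 to 147, with a median of 102, in OKO. Eno1 ranged from 609 to 767 CPM in YWT, from 701 to 927 in OWT, from 609 to 938 in YKO and from 293 to 944, with a median of 655, in OKO. With TMM scaling OKO1 and OKO3 were below every library of the other groups in all 3 genes, while the highest of the 19 libraries was also an OKO library, OKO5 for Aldoa and OKO7 for Pgk1 and Eno1. By library total YWT2 lay below both OKO1 and OKO3 in each of the 3.

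The log2 fold change of Eno1 in OKO vs YKO was -0.36 ± 0.26 (SE, interval -0.90 to 0.18, adjusted p = 0.518), that of Pgk1 -0.42 ± 0.23 (interval -0.90 to 0.06, adjusted p = 0.385) and that of Aldoa 0.03 ± 0.26 (interval -0.51 to 0.56, adjusted p = 0.967). Which OKO libraries were used changed these values more than those of Hk1 or Hk2. With OKO1 to OKO3 alone, Eno1 was -0.93 (adjusted p = 0.0114) and Pgk1 -0.78 (adjusted p = 0.0281), both past the call, and Aldoa was -0.52 (adjusted p = 0.0996). With OKO4 to OKO7 alone and without YWT4 and YKO2, Eno1 was -0.13, Pgk1 -0.28 and Aldoa 0.25, with adjusted p-values of 0.763, 0.480 and 0.486. OKO1 to OKO3 had more genes above 1 CPM than any other library and TMM factors between 1.24 and 1.83, which lower their CPM. Scaled by library total alone, Eno1 was -0.16, Pgk1 -0.20 and Aldoa 0.22 in OKO vs YKO, on a scale where the median of all genes was 0.63. Near-identical copies of these genes held at most 1.72% (Aldoa), 1.5% (Pgk1) and 3.68% (Eno1) of the counts of gene and copies together in any library.

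Pkm (ENSMUSG00000032294.17, chromosome 9, 59656368 to 59679375, plus strand) encodes the muscle and proliferating cell forms of pyruvate kinase, which the counts per gene do not separate. It stood at 811, 912, 893 and 782 CPM in YWT1 to YWT4 and at 1526, 1382, 937 and 984 in OWT1 to OWT4. In YKO1 to YKO4 it stood at 493, 609.6, 809 and 949, and in OKO it ranged from 511 to 1489, with a median of 826. The OWT libraries lay above all YWT libraries, with OWT1 and OWT2 far above and OWT3 next to the highest YWT library, and the KO groups overlapped. By library total the WT groups overlapped as well, with YWT4 at 951 CPM and OWT3 at 879. The log2 fold change was 0.51 ± 0.30 (SE, interval -0.12 to 1.13, unadjusted p = 0.105, adjusted p = 1.000) in OWT vs YWT and 0.34 ± 0.27 (adjusted p = 0.557) in OKO vs YKO. With OKO1 to OKO3 alone the second value turned to -0.09, and with OKO4 to OKO7 alone and without YWT4 and YKO2 it was 0.54. The transcript Gm49759, annotated as still to be tested by experiment, shares 767 exon bases with Pkm on the same strand, and copies of Pkm held at most 3.60% of the counts.

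Ldha (ENSMUSG00000063229.15, chromosome 7, 46841475 to 46855627, plus strand) encodes the subunit of lactate dehydrogenase that favors lactate. It was 1612, 1289, 1373 and 1183 CPM in YWT1 to YWT4, 1708, 2286, 1342 and 1345 in OWT1 to OWT4 and 1756, 1079, 1882 and 2014 in YKO1 to YKO4. In OKO it ranged from 629.8 to 2513, with a median of 1629.6, a range that contained that of each other group with TMM scaling. Its log2 fold change was 0.29 ± 0.35 in OWT vs YWT, 0.30 ± 0.35 in YKO vs YWT, -0.10 ± 0.31 in OKO vs YKO and -0.09 ± 0.31 in OKO vs OWT, none with an unadjusted p under 0.05. Copies of Ldha held at most 2.86% of its counts.

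Pdk1 (ENSMUSG00000006494.11, chromosome 2, 71873224 to 71903858, plus strand) encodes the kinase that switches off pyruvate dehydrogenase. It stood at 125, 141, 105 and 59.7 CPM in YWT1 to YWT4 and at 154, 155, 99.99 and 107 in OWT1 to OWT4. In YKO1 to YKO4 it stood at 104, 88.3, 134 and 115, and in OKO it ranged from 64.7 to 118, with a median of 92.1. OWT1 and OWT2 had the 2 highest values of the 19 libraries, YWT4 the lowest, and OKO4 was the OKO library that reached into the OWT range. By library total OKO1, at 128.6 CPM, and OKO2, at 100.1, lay above OWT3, at 93.8, as well. The log2 fold change in OKO vs OWT was -0.55 ± 0.22 (SE, interval -1.01 to -0.10, unadjusted p = 0.0197, adjusted p = 0.592). Within the IB15 series, with OKO4 to OKO7 alone, it was -0.34 (adjusted p = 1.000). By library total alone it was -0.28, beside a median of 0.46 over all genes on that scale.

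Hif1a (ENSMUSG00000021109.13, chromosome 12, 73901375 to 73947530, plus strand) itself was 61.1, 59.2, 86.1 and 47.2 CPM in YWT1 to YWT4, 69.6, 65.3, 65.0 and 54.7 in OWT1 to OWT4 and 65.6, 54.2, 51.6 and 57.0 in YKO1 to YKO4. In OKO it ranged from 32.0 to 69.3, with a median of 47.1. YWT3 had the highest value and OKO1 the lowest, and all 4 groups overlapped. By library total OKO7 was the lowest, at 35.9 CPM. The means of the 2 WT groups, with SDs over 4 libraries each, were 63.4 ± 16.4 CPM for YWT and 63.6 ± 6.31 CPM for OWT. Between them the log2 fold change was 0.01 ± 0.22 (interval -0.45 to 0.46, adjusted p = 1.000). In OKO vs OWT it was -0.35 ± 0.19 (interval -0.75 to 0.05, adjusted p = 0.592), and within the IB15 series -0.15. Both intervals lie within 1 log2 unit of 0, and smaller differences in Hif1a RNA were not detectable here. The antisense gene Gm15283 shares 330 exon bases with Hif1a.

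The genes whose log2(CPM + 1) over the 19 libraries ran most like that of Hif1a, among 11303 with a mean of at least 3, were Nr3c1, Zfp24, Vps4b, Rnft1 and Ppp4r2, with Pearson r of 0.90, 0.88, 0.88, 0.88 and 0.88. Of the other members with TMM scaling, Pdk1 and Eno1 were the most like Hif1a, with r of 0.62 and 0.61. Hk2 was the least, with r of 0.02. Among the 11303 genes Pdk1, Eno1 and Hk2 ranked 1878, 1915 and 10728 by r with Hif1a. By library total Slc2a1 had the highest r, 0.44, and Ldha the lowest, 0.04. On that scale r was 0.39 for Pdk1, 0.13 for Eno1 and 0.33 for Hk2. In the libraries with the IB15 prefix r was 0.64 for Pdk1 and -0.24 for Eno1. The libraries share groups, naming series and scaling, and these values are a description.

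Each of 4 members belongs to a small family whose genes carry out the same step, and its share of the family's counts does not depend on the scaling of a library. Of the counts on Hk1, Hk2 and Hk3, Hk2 held 4.87%, 5.33%, 5.97% and 7.60% in YWT1 to YWT4 and 9.60%, 8.87%, 7.19% and 8.07% in OWT1 to OWT4. It held 3.40%, 6.04%, 4.01% and 5.84% in YKO1 to YKO4 and from 5.98% to 16.1% with a median of 9.43% in OKO. All YKO libraries but 1 lay below the lowest OKO library, and YKO2 lay above OKO2 by a small margin. The share was higher in OKO than in YKO by 5.31 percentage points, exact two-sided permutation p = 0.0121, adjusted p = 0.194 over 16 tests. It was higher in OWT than in YWT by 2.49 percentage points, exact two-sided permutation p = 0.0571, adjusted p = 0.229 over 16 tests, and there the smallest p that 4 against 4 libraries allow is 0.0286. With OKO1 to OKO3 alone, the naming series of YKO, the difference to YKO was 6.22 percentage points.

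Of the counts on Ldha and Ldhb, the subunit that favors pyruvate, Ldha held 93.0%, 91.8%, 91.2% and 91.2% in YWT1 to YWT4 and 89.6%, 91.9%, 91.0% and 88.4% in OWT1 to OWT4. It held 96.7%, 94.7%, 94.2% and 94.9% in YKO1 to YKO4 and from 87.0% to 95.5% with a median of 92.6% in OKO. Every YKO library lay above every YWT library. The difference was 3.39 percentage points, exact two-sided permutation p = 0.0286, the smallest that 4 against 4 libraries allow, adjusted p = 0.229 over 16 tests. Ldhb stood at 59.4, 59.9, 114.9 and 108 CPM in YKO1 to YKO4 and at 122, 116, 133 and 114.8 in YWT1 to YWT4. A higher level of Ldha itself in YKO was not shown, as its log2 fold change given above lay within its SE. In OKO the Ldha share was lower than in YKO, with a difference of -3.67 percentage points, exact two-sided permutation p = 0.0485, adjusted p = 0.229 over 16 tests. Erythroid marker sums reached their highest values in YKO, with ranges, given above, that overlapped those of YWT and OKO. Their part in this share was not tested. Slc2a1 held between 18.8% and 28.3% of the counts on Slc2a1 and Slc2a3 in the 19 libraries, and Pdk1 between 28.1% and 45.1% of those on Pdk1 to Pdk4. For these families the adjusted p was at least 0.672 in all 4 comparisons. None of the 16 share tests passed an adjusted p of 0.05.

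**Figure D4:**
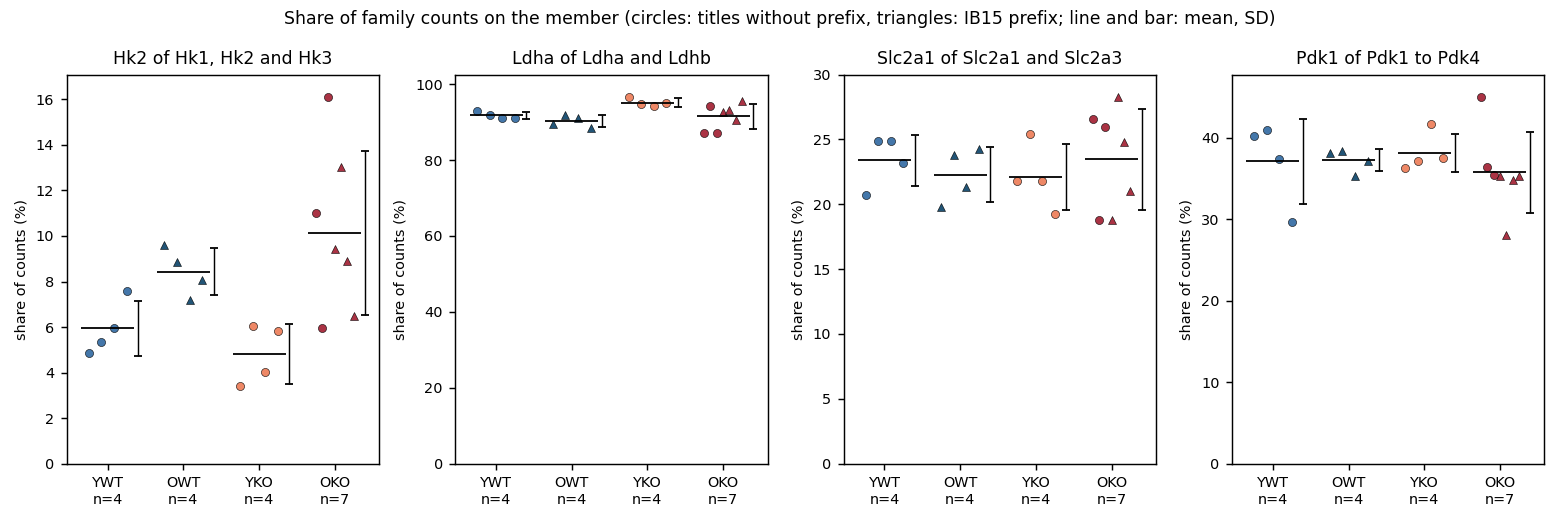
Share of family counts on Hk2, Ldha, Slc2a1 and Pdk1 in each of the 19 libraries, in percent from 0, with group mean (line) and SD (bar). The mean Hk2 share is 4.82% in YKO and 10.1% in OKO, and the Ldha share of each YKO library is above that of each YWT library.

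The wider pathway was taken from 7 lists with 78 genes in the files, the 10 members included, all of which were tested. In OKO vs YKO edgeR called 1 of the 78 (1.29% of all genes), and in the other comparisons 0. At an unadjusted p under 0.05 there were 5 of 78 (6.41%, beside 4.38% of all genes) in OWT vs YWT and 6 (7.69%, beside 4.59%) in YKO vs YWT. There were 19 (24.4%, beside 15.8%) in OKO vs YKO and 8 (10.3%, beside 8.14%) in OKO vs OWT. These backgrounds moved with the filter. When symbols averaging under 5 CPM were left out, 12363 remained. Of these, 4184 had such a p in OKO vs YKO, 970 in OWT vs YWT, 1660 in YKO vs YWT and 458 in OKO vs OWT. The count among the 78 in that fit is not given here, so an excess over genes of similar level was not shown. DESeq2 called 12 of the 78 (15.4%, beside 6.3% of all genes) in OKO vs YKO, 10 higher and 2 lower (Ankrd37 and Slc16a1, named after their values were seen), and 0 in the other 3. The median log2 fold change of the 78 was 0.13 in OWT vs YWT, -0.01 in YKO vs YWT, -0.11 in OKO vs YKO and -0.20 in OKO vs OWT, beside -0.05, -0.02, 0.23 and 0.12 over all genes tested. By library total alone the median of the 78 turned to 0.12 in OKO vs YKO and to 0.04 in OKO vs OWT, and there 32 of the 78 were below 0 in OKO vs OWT, against 61 with TMM. With only genes of a mean CPM of at least 5 fitted, the median of all genes was 0.03 in OKO vs YKO and in OKO vs OWT.

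The gene called was Pfkfb3 (ENSMUSG00000026773.19, chromosome 2, 11471433 to 11554077, minus strand), whose enzyme makes fructose 2,6-bisphosphate, the strongest activator of phosphofructokinase. It stood at 29.9, 28.5, 37.0 and 38.4 CPM in YWT1 to YWT4, at 92.6, 60.5, 43.3 and 33.6 in OWT1 to OWT4 and at 28.5, 24.4, 35.7 and 27.0 in YKO1 to YKO4. In OKO it ranged from 33.1 to 151, with a median of 98.0. With TMM scaling OKO2 to OKO6 were above all young libraries, while OKO1 and OKO7 lay below YKO3. By library total OKO1 (1697 of 27319850 counts) lay above YKO3 (1713 of 50371244). OKO6 (2419 of 54339559) then lay below YWT4 (1988 of 42603399). The sums of the cycling and HSC markers in YKO and OKO, whose ranges overlapped, are given above, and their part in the Pfkfb3 values was not tested. Its log2 fold change in OKO vs YKO was 1.64 ± 0.40 (SE, interval 0.82 to 2.47, adjusted p = 0.0415), and the value in OWT vs YWT was 0.78 ± 0.42 (adjusted p = 1.000). The interaction was 0.86 ± 0.56 (adjusted p = 0.811), so a difference between the age effects in WT and KO was not shown. With OKO1 to OKO3 alone Pfkfb3 in OKO vs YKO was 1.87. The call was lost when 1 library was left out in 9 of 19 cases, with adjusted p-values of 0.0516 without YWT4, 0.147 without YKO1, 0.0817 without YKO2, 0.0650 without YKO3, 0.0832 without YKO4, 0.0615 without OKO2, 0.0783 without OKO3, 0.0685 without OKO4 and 0.0652 without OKO5.

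For the separate lists in OKO vs YKO the shares of all genes are again 15.8% at an unadjusted p under 0.05 and 1.29% called. The first of these was larger with the 5 CPM filter, where 4184 of 12363 genes had such a p. The list shares were not set against genes of similar level. Among the transporters, 1 of 7 (14.3%) had an unadjusted p under 0.05, and 0 of 7 were called. Slc2a3, a glucose transporter with more counts than Slc2a1 in each library, had a log2 fold change of 0.29 ± 0.24 there, Bsg, the chaperone of the lactate carriers, -0.16 ± 0.28, and Slc16a1, the lactate carrier MCT1, -0.96 ± 0.34 (unadjusted p = 0.00936, adjusted p = 0.159). Of the 21 glycolytic enzymes 0 were called, 7 (33.3%) had an unadjusted p under 0.05 in OKO vs YKO, 4 with values above and 3 below 0, and the abundant Gapdh, Tpi1 and Gpi1 had values of -0.22 ± 0.26, -0.36 ± 0.26 and -0.20 ± 0.23. Of the 7 genes that make or remove fructose bisphosphates, Pfkfb3 was called and 0 others had an unadjusted p under 0.05 in OKO vs YKO, with 0.53 ± 0.27 for Pfkfb2 and 0.01 ± 0.22 for Pfkfb4.

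Of the 13 genes of the pyruvate dehydrogenase gate, 0 were called, and the fitted fold changes in OKO vs OWT were below 0 for all 13, from -0.55 to -0.03, with 1 at an unadjusted p under 0.05, Pdk1. By library total alone 7 of the 13 were below 0. The abundant members of this list, Pdk3, Pdha1 and Pdhb, had values of -0.41 ± 0.24, -0.34 ± 0.23 and -0.17 ± 0.23 there. Of the 6 genes listed as hypoxia-inducible factors and their partners, 0 were called, and Arnt, the constant partner of Hif1a, had -0.27 ± 0.20 in OKO vs YKO, Hif3a -0.30 ± 0.30 and Meis1, a regulator of Hif1a in HSCs, 0.38 ± 0.23. In YKO vs YWT the value of Meis1 was -0.53 ± 0.25 (unadjusted p = 0.0474, edgeR adjusted p = 1.000). Its CPM was 237 to 378 in YKO and 400.1 to 551 in YWT, 2 ranges that did not overlap with TMM scaling. The groups overlapped by library total, where YWT2 (16740 of 59928475 counts) lay below YKO4 (22072 of 62472600). Egln3, a prolyl hydroxylase gene named after its values were seen, was -0.75 ± 0.31 in YKO vs YWT (unadjusted p = 0.0248, edgeR adjusted p = 0.953). Its groups were apart with TMM scaling and by library total. Of the 78 pathway genes 4 had YKO and YWT apart with TMM scaling, 1 higher and 3 lower in YKO, beside 5.12% of all genes. Of the 6 genes of oxygen sensing and factor turnover, 0 were called, with -0.01 ± 0.23 for the prolyl hydroxylase gene Egln2, -0.16 ± 0.25 for Hif1an and 0.40 ± 0.28 for Cited2. Of 18 other known targets of the factors, 0 were called and 6 (33.3%) had an unadjusted p under 0.05 in OKO vs YKO, 3 in each direction, with 0.40 ± 0.33 for Ndrg1, -0.28 ± 0.20 for Bnip3l and -0.17 ± 0.18 for Kdm3a.

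Relations between members across libraries were computed for all 45 pairs on log2(CPM + 1). The permutations moved values freely over all 19 libraries, so their p-values do not set aside groups, naming series or scaling. The strongest was that of Aldoa and Eno1, with a Pearson r of 0.90 (permutation p = 1e-05, the smallest that 100000 permutations give, adjusted p = 1.12e-04) and a Spearman rho of 0.75 (permutation p = 2.70e-04, adjusted p = 0.00243). Without OKO1 and OKO3, the 2 libraries farthest from the median of Aldoa, r was 0.72, and it was 0.943 in the 11 libraries without the IB15 prefix and 0.56 in the 8 with it. Scaled by library total alone it was 0.68. Slc2a1 and Hk2, a transporter and a kinase that take up and trap glucose, had the same 5 highest libraries with TMM scaling, OWT1, OWT2, OKO3, OKO4 and OKO5, and shared 3 of 5 by library total. Their r was 0.74 (permutation p = 3.60e-04, adjusted p = 0.00202) and their rho 0.54 (permutation p = 0.0175, adjusted p = 0.0512). Without OKO5 and OWT2 r was 0.59, in the libraries without the prefix 0.396 and in those with it 0.85. By library total it was 0.83. Hk1 and Hk2 had r of -0.21 (permutation p = 0.380, adjusted p = 0.450) and rho of -0.25 (permutation p = 0.301, adjusted p = 0.366). Their r was -0.53 in the libraries without the prefix, 0.55 in those with it and -0.06 by library total. With group means subtracted, r was 0.96 for Aldoa and Eno1, 0.82 for Slc2a1 and Hk2 and 0.16 for Hk1 and Hk2.

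Set side by side under 4 choices of libraries and scaling, Hk2 was higher in OKO than in YKO with each choice, from 0.62 to 0.97 on the log2 scale, and Hk1 lower with each, from -0.75 to -0.33. Slc2a1 was above 0 with each as well, from 0.21 to 0.71. Aldoa, Ldha and Pkm took both signs, and so did Hif1a, from -0.40 to 0.09. Of these values the ones past the call were those of Hk1, Pgk1 and Eno1 with OKO1 to OKO3 alone, a setting in which 6285 of 35140 genes tested were called.

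**Figure D5:**
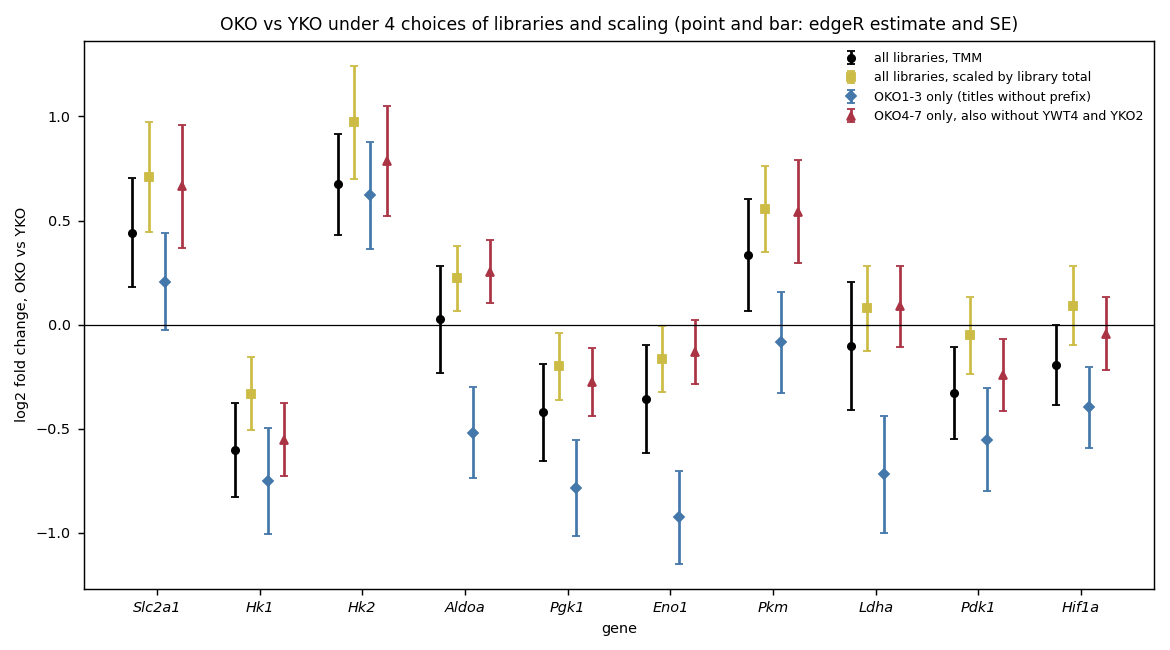
Log2 fold changes of the 10 genes in OKO vs YKO (edgeR estimate and SE) with all libraries, with scaling by library total, with OKO1 to OKO3 alone, and with OKO4 to OKO7 alone without YWT4 and YKO2. Hk2 stays above 0 and Hk1 below 0 in all 4, while Aldoa, Ldha, Pkm and Hif1a change sign.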

How the data were processed

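Counts of 19 HSC RNA-seq libraries were used (4 YWT, 4 OWT, 4 YKO and 7 OKO), while the bisulfite libraries were not used here. The authors trimmed reads with Trim Galore 0.4.3 and cutadapt, aligned them with STAR to mm10 using a GENCODE M22 index, and deposited raw counts per gene symbol from featureCounts, without normalization. Mate and strand settings are not given in the sources used here. Library totals ranged from 22197555 to 77970627. Groups came from the labels.

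Counts were filtered with filterByExpr, which left 33690 of 55376 symbols, normalized by TMM and tested with the quasi-likelihood test of edgeR 4.0.16 in R 4.3.3, with all libraries in 1 fit, 1 mean per group and no covariate. A gene was called at a Benjamini-Hochberg adjusted p under 0.05 over all genes tested and a fold change over 1.5. Standard errors were the log2 fold change divided by the root of the F statistic, and 95% intervals used the t distribution with the fit's degrees of freedom. The study's methods name DESeq2 with these thresholds, and DESeq2 1.42.0 was run as an alternative. Gene positions and exon lengths came from GENCODE M21, in which 54510 of the symbols were found. Shares of family counts were compared by exact two-sided permutation tests, adjusted over 16 tests, and correlations by 100000 permutations (scipy 1.17.1). The procedures were tested on simulated data.

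The 10 members and the lists were chosen with earlier results of these data known. Named besides the members were pathway genes called in any of the 4 comparisons and up to 3 genes per list with the highest mean CPM, and the 5 genes most correlated with Hif1a among those averaging 3 or more in log2(CPM + 1). Near-identical copies had at least 90% identity over at least 300 bases. The alternatives were DESeq2, RLE and upper-quartile normalization, library totals alone, filters at any count or at an average of 5 CPM, calls by adjusted p without the fold limit, log2 ratios in place of shares, the compared groups alone, naming series as a covariate, OKO of 1 naming series, replicate number as a block, and leaving out each library. Leaving out the 5 libraries with most genes above 1 CPM, and DESeq2 without OKO1, were added after the data were seen.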

Additional observations from a re-analysis of the deposited data

Results flagged for a closer look

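Slc2a1 in YKO1 stood at 41.4 CPM, while the other 3 YKO libraries lay between 49.98 and 51.7 CPM, a gap of 0.831 of the group's range. Slc2a1 in OKO5 stood at 123.5 CPM, while the other 6 OKO libraries lay between 41.7 and 74.2 CPM, a gap of 0.603 of the range. Both were marked because 1 library stood far from the rest of its group by Dixon's criterion, which was applied to 60 sets of values, and chance alone marks about 1 in 20 such sets. For 0 of the 10 genes did the age effects in WT and KO differ by the interaction test of edgeR, 0 had an unadjusted p under 0.05 there, and DESeq2 called 0.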

How the results depend on the processing

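The call of 0 members held under all 32 alternatives in the comparisons of OWT with YWT, of OKO with OWT and of YKO with YWT, and in the interaction under all 30. In OKO vs YKO, 1 member (Hk2, higher) was called with DESeq2, with DESeq2 without OKO1, with upper-quartile normalization and with the filter at 5 CPM, and 3 (Eno1, Hk1 and Pgk1, lower) with naming series as a covariate and with OKO of 1 naming series. Leaving out any 1 library gave 0 to 0 members called in each comparison. A member's direction was counted as turned only where its log2 fold change exceeded its standard error in the reported fit. With naming series as a covariate, 9 of the 10 members were below 0 in OWT vs YWT, from -0.78 (Eno1) to -0.21 (Pdk1), among which Pkm turned to -0.26 and Pdk1 to -0.21, Pkm to -0.15 in OKO vs YKO, and Aldoa to 0.049 and Pgk1 to 0.011 in OKO vs OWT. With OKO of 1 naming series Pkm turned to -0.085 in OKO vs YKO, and Aldoa to 0.076, Pgk1 to 0.038 and Eno1 to 0.011 in OKO vs OWT. Without the 5 libraries with most genes Aldoa turned to 0.053 and Pgk1 to 0.011 in OKO vs OWT. Of 1580 values of members under alternatives, 105 changed sign, 11 of them counted as turned. The cause was not tested. None of the 344 share values under alternatives passed an adjusted p of 0.05. In OKO vs YKO, Pfkfb3 kept its call in 21 of 32 alternatives, with log2 fold changes from 1.43 to 1.95. The pathway genes called there numbered 1 in the reported fit (1.29%), 12 with DESeq2 (6.3% of all genes called), 11 with the filter at 5 CPM (12.1%), 25 with OKO of 1 naming series (17.9%) and 25 with naming series as a covariate (19.1%). When 1 library was left out they numbered from 0 to 5, with 5 without OKO7 (5.47% of all genes called). They numbered 0 without YWT4, YKO1, YKO2, YKO3 or any of OKO2 to OKO5, where 0.284% to 1.36% of all genes were called. DESeq2 without OKO1 and leaving out 5 libraries were chosen after seeing the data.

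With the replicate number as a block, 0 members were called in each comparison. In OKO vs YKO 3 of the 78 pathway genes (Mpc1, Pfkfb3 and Slc16a1) were called, beside 5.27% of all genes. Libraries with the same number in 2 groups deviated from their group means with correlations from -0.47 to 0.30, so the number does not pair them, and OKO5 to OKO7, whose numbers occur in no other group, carry no information in that fit.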
